A study of Mus musculus with 18 samples.

Results

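Splenic B cells were profiled by RNA sequencing for 53 genes of DNA replication and of the passage from G1 into S phase, out of the 23420 genes listed for every library. The 53 genes were chosen by function, at a time when earlier results of these data were known. They held the MCM helicase, the origin recognition complex, the licensing and origin firing factors, the replicative polymerases with their clamp, clamp loader and single-strand binding protein, the enzymes that finish the lagging strand, the E cyclins and E2F factors, and genes that copy chromatin. All 53 were found by symbol, and all 53 passed the filter on low values, which asked for at least 3 fitted libraries over 0 log2 CPM (the deposited scale, the base 2 logarithm of counts scaled to a common library size).

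The 18 libraries formed 6 groups of 3, all from MRL/lpr mice, a lupus-prone strain that carries the lpr mutation of Fas. In the first arm all cells were Tlr7-/-. Their Tlr9 was either of the genotype called Tlr9het here or Tlr997, a TLR9 whose signaling (TIR) domain comes from TLR7. Tlr9het was given as Tlr9+/- in the sample descriptions and in the paper's results, and as Tlr9-/- in the protocol. Cells of both genotypes were left unstimulated or given the TLR9 agonist CpG at 10 µg/ml. In the second arm all cells were Tlr779 Tlr9-/-, with the TIR domain of TLR9 placed in TLR7, and they were left unstimulated or given the TLR7 agonist CL097 at 5 µg/ml. Both cultures ran for 4 h. The mice were 5 to 7 weeks old, female in the first arm and male in the second. Both chimeric alleles were made in the endogenous loci of MRL/lpr mice and were thus carried by every cell type. The arms differed in sex, genotype and agonist together, so their responses are given side by side and were not tested against each other. Control libraries of the second arm were not analysed here.

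A cell prepares to copy its genome in stages. Origins are bound by the origin recognition complex and loaded with the MCM helicase with the help of Cdc6 and Cdt1 (licensing). Cyclin E and its kinase, together with the Cdc7-Dbf4 kinase, then turn the loaded helicase into an active one with Cdc45 and the GINS complex (firing), and the polymerases follow. Many of these genes are targets of E2F factors, which the retinoblastoma family holds inactive in resting cells. Most splenic B cells are at rest, and TLR agonists such as CpG can drive them out of rest and into division.

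The depth of each library is unknown, since the files gave log2 values without counts. Replicates of a group correlated at r = 0.944 to 0.989 over 11676 genes, and the lowest values belonged to the third unstimulated Tlr997 library. In the Tlr7-/- arm, Tlr7 lay at 2.68 to 3.48 log2 CPM at rest and 4.11 to 4.28 with CpG in Tlr9het libraries. In Tlr997 libraries it was higher, at 4.81 to 5.185 and 5.33 to 5.36, and in Tlr779 libraries it lay between 6.61 and 7.82. Tlr9 lay between 6.93 and 8.08 in every library, Tlr9-/- ones included, so it did not check the Tlr9 labels. The 7 B cell markers summed to between 1822 and 7670 CPM, and their sum was lower with agonist in every genotype, as Cd79a, Cd79b and Cd22 were. The sums over the other lists were 56.3 to 125 CPM for T cells, 1.83 to 10.9 for NK cells, 19.0 to 173 for neutrophils, 102 to 475 for macrophages, 285 to 1214 for plasma cells, 99.6 to 202 for germinal centre B cells and 338 to 4277 for erythroid cells.

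After 4 h of agonist, genes of the replication machinery moved in both directions, and genes of the same complex often moved apart. With CpG, 17 of the 53 members rose and 9 fell in Tlr9het cells, and 20 rose and 7 fell in Tlr997 cells. With CL097, 20 rose and 6 fell in Tlr779 cells. A member was called where limma gave an adjusted p under 0.05, over all genes tested, and an absolute log2 fold change over 0.5. By the same rule, 57.8% of the 11494 genes tested were called with CpG in Tlr9het cells (29.7% higher and 28.2% lower), 55.6% in Tlr997 cells (29.6% higher and 26% lower) and 46.3% of 11082 genes with CL097 (22.7% higher and 23.6% lower). The members' calls, 26, 27 and 26 of 53, were thus no more frequent than calls among all genes with CpG and near them with CL097. Without the filter on low values, CL097 called 12 rises and 4 falls among the members, and lost Cdc6, Cdc45, Gins2, Rfc3, Ccne1, Ccne2, E2f1, E2f8, Orc5 and Prim2 (adjusted p = 0.0574 to 0.258). Without its first stimulated library it called 28 rises and 3 falls. The median log2 fold change of the members was 0.27, 0.38 and 0.39 in the 3 responses, beside 0.04, 0.07 and -0.02 over all genes. In bulk RNA, a change in the number of cells of a type and a change of RNA per cell cannot be told apart.

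In all 3 responses, 13 members rose: Mcm2, Orc1, Orc2, Orc6, Mcm10, Dbf4, Gins2, Pold2, Rfc3, Rfc4, Fen1, Ccne2 and E2f1. In all 3, 5 members fell: Orc5, Pold1, Rfc1, Rfc2 and Rpa1. Of these, 7 rises (Orc1, Orc2, Orc6, Mcm10, Dbf4, Pold2 and Fen1) and 2 falls (Pold1 and Rfc1) were called in all 3 responses whichever 1 library was left out and also without the filter. Mcm3, Mcm5 and Pcna rose with CpG in both genotypes and missed the call with CL097, and Cdt1 and Dnmt1 fell with CpG in both genotypes and missed it with CL097. Orc4, Cdc6, Cdc45 and E2f8 were called with CL097 alone. Only Ccne1 was called in opposite directions. In none of the 3 responses did 19 members pass: Mcm4, Mcm6, Mcm7, Gmnn, Cdc7, Gins3, Gins4, Pola1, Pola2, Pole2, Rfc5, Rpa2, Rpa3, Lig1, E2f2, E2f7, Uhrf1, Chaf1a and Chaf1b. Such patterns over the 3 responses were not counted for all genes, so these counts do not set the members apart from other genes.

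**Figure D1:**
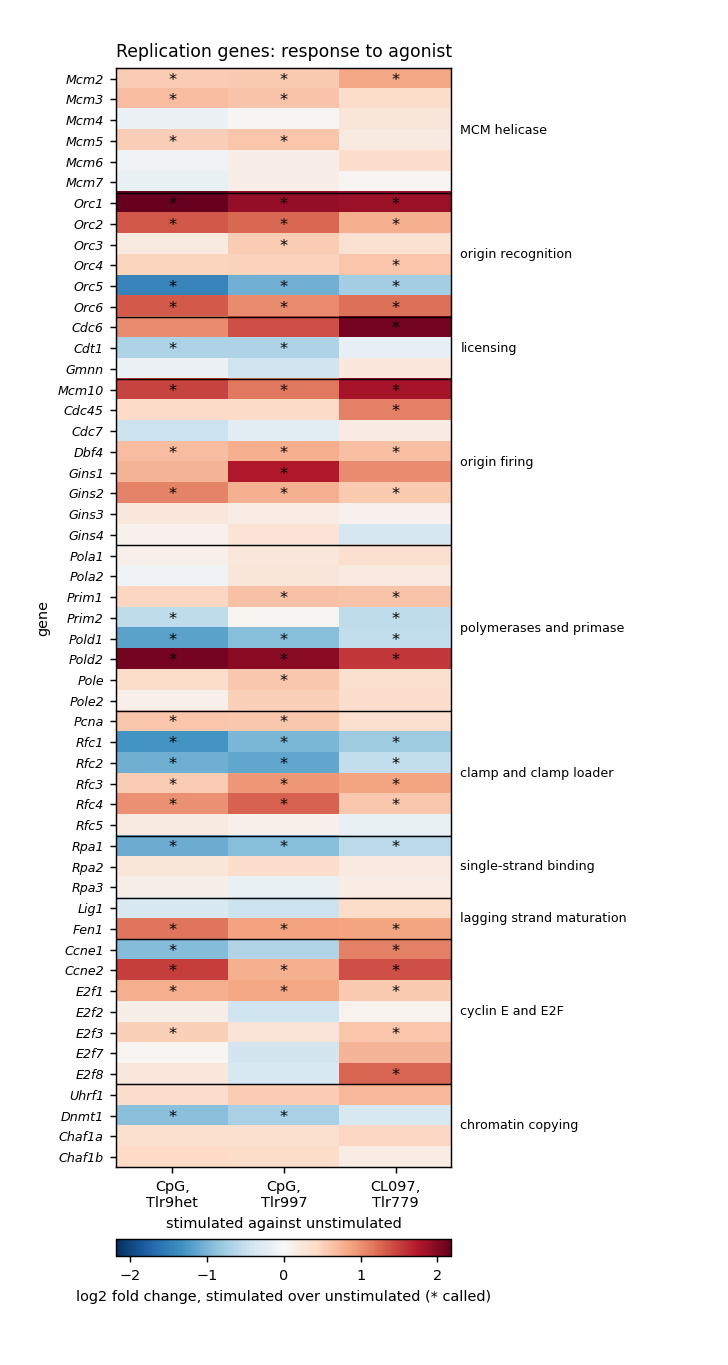
Log2 fold change of each of the 53 members (rows, grouped by role) in the CpG response of Tlr9het cells, the CpG response of Tlr997 cells and the CL097 response of Tlr779 cells (columns), as colour from blue (lower with agonist) to red (higher). A star marks a call (adjusted p under 0.05 and absolute log2 fold change over 0.5); Orc1 and Pold2 are red and Orc5, Pold1, Rfc1, Rfc2 and Rpa1 are blue in all 3 columns.

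The origin recognition complex, whose subunits Orc1 to Orc6 mark the sites where replication can start, showed this split. Orc1, the subunit that binds and leaves the complex during the cycle, rose most of all members with CpG in Tlr9het cells. It read 1.27, 1.15 and 1.07 log2 CPM in the 3 unstimulated Tlr9het libraries and 3.48, 3.27 and 3.28 with CpG, a 4.54-fold rise, with a log2 fold change ± SE of 2.18 ± 0.18 (adjusted p = 1.26e-07). In Tlr997 cells it went from 1.47, 1.43 and 1.80 to 3.43, 3.73 and 3.28, a log2 fold change of 1.91 ± 0.18 (adjusted p = 5.47e-07). In Tlr779 cells it went from 1.38, 1.23 and 1.28 to 2.92, 3.65 and 2.98 with CL097, a log2 fold change of 1.88 ± 0.23 (adjusted p = 0.000234). Every stimulated library lay above every unstimulated library of its genotype. Orc1 lies on mouse chromosome 4 (108575705 to 108616030, RefSeq annotation of GRCm38).

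Orc2, a core subunit, was tight between replicates and rose by a smaller amount. Tlr9het libraries held 6.08, 6.09 and 6.04 log2 CPM of Orc2 at rest and 7.40, 7.48 and 7.39 with CpG (log2 fold change 1.35 ± 0.08 (adjusted p = 2.42e-09)). The rise was 1.25 ± 0.08 (adjusted p = 6.47e-09) in Tlr997 cells and 0.77 ± 0.11 (adjusted p = 0.000404) in Tlr779 cells, where the libraries went from 6.04, 6.17 and 5.84 to 6.80, 6.92 and 6.65. Orc6, the smallest and most loosely held subunit, rose by 1.34 ± 0.20 (adjusted p = 3.24e-05), 1.03 ± 0.20 (adjusted p = 0.000343) and 1.20 ± 0.11 (adjusted p = 4.51e-05) in Tlr9het, Tlr997 and Tlr779 cells. Its unstimulated values were 4.02, 3.71 and 3.53 in Tlr9het, 3.56, 4.04 and 4.52 in Tlr997 and 3.74, 3.69 and 3.70 in Tlr779 libraries, and its stimulated values were 5.21, 5.04 and 5.03, then 5.15, 5.09 and 4.97, then 4.75, 4.95 and 5.02. The unstimulated Tlr997 libraries were the most spread of these, and no group of Orc6 values overlapped its stimulated counterpart.

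Orc5, an ATP-binding core subunit encoded on chromosome 5 (22486480 to 22550338), fell where Orc1, Orc2 and Orc6 rose. Its Tlr9het libraries read 4.21, 4.27 and 4.17 log2 CPM at rest and 2.57, 2.75 and 2.98 with CpG, a log2 fold change of -1.45 ± 0.16 (adjusted p = 2.26e-06). In Tlr997 cells Orc5 went from 4.40, 4.37 and 3.82 to 3.05, 3.20 and 3.22 (-1.04 ± 0.16, adjusted p = 5.99e-05), and in Tlr779 cells from 4.72, 4.44 and 4.42 to 3.33, 3.96 and 4.06 with CL097 (-0.74 ± 0.20, adjusted p = 0.0128). None of the groups overlapped. The CL097 call of Orc5 was lost without the first unstimulated Tlr779 library (-0.65, adjusted p = 0.0533). Orc3 rose by 0.55 ± 0.07 (adjusted p = 4.94e-06) in Tlr997 cells, and its values of 0.19 ± 0.07 (adjusted p = 0.0197) in Tlr9het and 0.32 ± 0.06 (adjusted p = 0.00197) in Tlr779 cells passed the p but not the fold. Orc4 rose with CL097 by 0.60 ± 0.07 (adjusted p = 0.000147) and was not over the fold threshold with CpG, at 0.49 and 0.50.

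The 6 MCM genes encode the ring that unwinds DNA, and 3 of them rose with CpG. Mcm3 read 6.83, 6.96 and 6.89 log2 CPM in unstimulated Tlr9het libraries and 7.58, 7.59 and 7.55 with CpG, a log2 fold change of 0.68 ± 0.10 (adjusted p = 2.72e-05). Mcm2 rose by 0.55 and 0.57 with CpG in Tlr9het and Tlr997 cells and by 0.84 with CL097, and Mcm5 by 0.53 and 0.60 with CpG. Mcm4, Mcm6 and Mcm7 were not called, with log2 fold changes between -0.16 and 0.39 over the 3 responses. Several of these calls lay near the fold threshold. Mcm3 in Tlr997 cells was lost without the third unstimulated library (0.49), Mcm2 there without the first CpG library (0.48), and Mcm5 without the same CpG library in Tlr997 cells or the third unstimulated library in Tlr9het cells.

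Among the licensing factors, Cdc6, which loads the helicase, rose only by the CL097 test and varied widely between libraries. In Tlr779 cells it read 2.52, 2.39 and 2.56 log2 CPM at rest and 3.11, 5.12 and 5.54 with CL097, a log2 fold change of 2.10 ± 0.55 (adjusted p = 0.0107), a call lost without the filter on low values (adjusted p = 0.113). In Tlr9het cells it read 1.97, 1.39 and 1.07 at rest and 3.24, 1.97 and 2.31 with CpG, where its value of 1.03 ± 0.72 (adjusted p = 0.218) was not called. In Tlr997 cells it read 2.54, 2.02 and -1.10 at rest and 3.09, 2.44 and 2.17 with CpG, with 1.41 ± 0.72 (adjusted p = 0.0967), and became a call under the replicate block (adjusted p = 0.0166). The third unstimulated Tlr997 library stood far below the other two, and without it Cdc6 was called in Tlr9het cells (adjusted p = 0.0172), since all 12 libraries share 1 estimate of the spread. Cdt1, the partner of Cdc6 in loading, fell with CpG, at -0.68 ± 0.09 (adjusted p = 1.13e-05) in Tlr9het and -0.68 ± 0.09 (adjusted p = 1.2e-05) in Tlr997 cells, and read -0.18 with CL097, where the groups overlapped. Gmnn, the inhibitor of Cdt1, was not called, at -0.12, -0.43 and 0.23.

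The firing factors moved up or were not called. Mcm10, which helps the helicase to start, read 1.97, 1.87 and 1.03 log2 CPM in unstimulated Tlr9het libraries and 3.41, 2.94 and 2.95 with CpG (1.48 ± 0.28, adjusted p = 0.000313). In Tlr779 cells it read 2.08, 2.31 and 2.70 at rest and 3.59, 4.31 and 4.60 with CL097 (1.80 ± 0.28, adjusted p = 0.00074), and in Tlr997 cells the difference was 1.16 ± 0.28 (adjusted p = 0.00216). The stimulated Mcm10 values lay above the unstimulated ones in each genotype.

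Gins2, a subunit of the GINS complex that travels with the helicase, went from 1.41, 1.69 and 0.95 to 2.42, 2.27 and 2.62 with CpG in Tlr9het cells (1.09 ± 0.21, adjusted p = 0.000424), and rose by 0.77 in Tlr997 cells and 0.57 with CL097. The CL097 call of Gins2 was kept without the first CL097 library and lost without any 1 of the other 5 libraries (adjusted p = 0.0564 to 0.113) or without the filter (adjusted p = 0.0574). Gins1 rose in Tlr997 cells (1.75 ± 0.38, adjusted p = 0.00113), where the third unstimulated library was again low (1.64, 1.59 and -0.15 at rest, 2.90, 2.86 and 2.56 with CpG). Gins3 and Gins4 were not called. Gins1 missed the call in Tlr9het cells (0.74 ± 0.38, adjusted p = 0.0994) and with CL097 (1.03 ± 0.41, adjusted p = 0.0593), and reached it in both when the replicate number was fitted as a block (adjusted p = 0.043 and 0.0287). Dbf4, the activator of the Cdc7 kinase, rose by 0.67, 0.80 and 0.65, while Cdc7 itself was not called (-0.46, -0.25 and 0.18). Cdc45, which completes the active helicase, rose with CL097 by 1.10 ± 0.28 (adjusted p = 0.0103), a call lost without the filter (adjusted p = 0.092), and read 0.42 and 0.41 with CpG.

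Polymerase delta, which copies the lagging strand, split between its catalytic and its accessory subunit. Pold2, the accessory subunit (chromosome 11, 5872180 to 5878256), read 4.48, 4.25 and 4.51 log2 CPM in unstimulated Tlr9het libraries and 6.38, 6.51 and 6.59 with CpG, a 4.23-fold rise with a log2 fold change of 2.08 ± 0.10 (adjusted p = 4.65e-10). It went from 4.27, 4.59 and 4.49 to 6.47, 6.32 and 6.45 in Tlr997 cells (1.96 ± 0.10, adjusted p = 1.05e-09) and from 4.85, 4.91 and 4.58 to 6.46, 6.37 and 6.13 with CL097 (1.54 ± 0.12, adjusted p = 2.47e-05). Replicates of Pold2 were close and no groups overlapped.

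Pold1, the catalytic subunit (chromosome 7, 44532744 to 44548815), went the other way. Its Tlr9het libraries read 5.12, 5.11 and 5.27 log2 CPM at rest and 4.00, 3.90 and 4.12 with CpG, 2.24-fold lower, a log2 fold change of -1.16 ± 0.11 (adjusted p = 5.15e-07). It went from 5.02, 5.09 and 5.28 to 4.38, 4.01 and 4.19 in Tlr997 cells (-0.93 ± 0.11, adjusted p = 5.22e-06) and from 5.30, 5.29 and 5.31 to 4.71, 4.88 and 4.70 with CL097 (-0.54 ± 0.09, adjusted p = 0.00107). Again no groups overlapped. Pold4, a small subunit that is not among the 53 genes, also fell, at -2.06, -2.04 and -1.36, while Pold3 read -0.03, 0.14 and 0.23 and was not called.

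The primase, which lays the RNA primers, split in a similar way but less firmly. Prim1, its catalytic subunit, rose with CpG in Tlr997 cells (0.65 ± 0.13, adjusted p = 0.000744) and with CL097 (0.62 ± 0.15, adjusted p = 0.0085), and read 0.46 ± 0.13 (adjusted p = 0.00706) in Tlr9het cells, under the fold threshold. Prim2, its large subunit, fell with CpG in Tlr9het cells (-0.56 ± 0.17, adjusted p = 0.00829), where it went from 4.31, 4.57 and 4.34 to 3.84, 3.86 and 3.83, a call lost on its fold without the second unstimulated library (-0.48). With CL097 it went from 4.79, 4.71 and 4.71 to 3.92, 4.11 and 4.54 (-0.55 ± 0.16, adjusted p = 0.0176), a call lost without the first or the second CL097 library or the first unstimulated library. In Tlr997 cells Prim2 read 0.04 and its groups overlapped. Pole, the catalytic subunit of the leading strand polymerase, rose in Tlr997 cells (0.59) and passed the p but not the fold elsewhere (0.41 and 0.35). Pole2, Pola1 and Pola2 were not called.

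The clamp loader, replication factor C, places the sliding clamp Pcna on DNA, and its subunits Rfc1 to Rfc5 moved in both directions. Rfc1, the large subunit (chromosome 5, 65261852 to 65338617), read 6.52, 6.54 and 6.43 log2 CPM in unstimulated Tlr9het libraries and 5.24, 5.28 and 5.07 with CpG, 2.46-fold lower (-1.30 ± 0.07, adjusted p = 2.15e-09). It went from 6.43, 6.29 and 6.47 to 5.40, 5.37 and 5.45 in Tlr997 cells (-0.99 ± 0.07, adjusted p = 3.87e-08) and from 6.48, 6.38 and 6.65 to 5.59, 5.78 and 5.80 with CL097 (-0.78 ± 0.10, adjusted p = 0.000234). Rfc2, a small subunit, fell with log2 fold changes of -1.07 ± 0.08 (adjusted p = 5.99e-08), -1.14 ± 0.08 (adjusted p = 3.48e-08) and -0.53 ± 0.11 (adjusted p = 0.00341) in the same order. Its libraries read 5.45, 5.42 and 5.43 at rest and 4.30, 4.37 and 4.43 with CpG in Tlr9het cells, and 5.58, 5.75 and 5.51 at rest and 4.90, 5.14 and 5.20 with CL097 in Tlr779 cells. Neither gene overlapped between rest and agonist in any genotype, and the CL097 call of Rfc2 was lost on its fold without the first CL097 library (-0.44) or the second unstimulated one (-0.46).

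Rfc4 and Rfc3, also small subunits, rose in all 3 responses. Rfc4 went from 3.04, 2.96 and 2.85 to 3.89, 3.91 and 4.06 in Tlr9het cells (1.00 ± 0.12, adjusted p = 3.85e-06), and rose by 1.29 in Tlr997 and 0.58 in Tlr779 cells, the last a call lost on its fold without the first unstimulated library (0.49). Rfc3 rose by 0.56, 0.94 and 0.87, where the Tlr9het call was lost on its fold without the third CpG library (0.4995) and the CL097 call without the filter (adjusted p = 0.0634). Rfc5 was not called. Pcna rose by 0.61 ± 0.05 (adjusted p = 1.35e-07) and 0.58 ± 0.05 (adjusted p = 2.58e-07) with CpG and read 0.35 ± 0.08 (adjusted p = 0.00392) with CL097, below the fold threshold.

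Of the 3 subunits of replication protein A, which coats single-stranded DNA, the largest fell and the other 2 were not called. Rpa1 read 7.03, 7.33 and 7.22 log2 CPM in unstimulated Tlr9het libraries and 6.18, 6.12 and 6.01 with CpG (-1.09 ± 0.10, adjusted p = 2.63e-07). In Tlr997 cells it went from 7.38, 7.101 and 7.02 to 6.33, 6.18 and 6.20 (-0.93 ± 0.10, adjusted p = 1.52e-06), and with CL097 from 7.23, 7.27 and 7.31 to 6.50, 6.85 and 6.69 (-0.59 ± 0.09, adjusted p = 0.000912). No stimulated value reached an unstimulated one, although the CL097 call was lost on its fold without the first CL097 library (-0.50). Rpa2 read 0.27, 0.38 and 0.22, and Rpa3 0.13, -0.16 and 0.16.

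Fen1, the nuclease that trims the primers of the lagging strand, rose in all 3 responses. It went from 5.66, 5.64 and 5.56 to 6.85, 6.74 and 6.78 log2 CPM with CpG in Tlr9het cells (1.17 ± 0.08, adjusted p = 1.19e-08), from 5.97, 5.81 and 5.83 to 6.92, 6.73 and 6.62 in Tlr997 cells (0.88 ± 0.08, adjusted p = 2.38e-07) and from 5.77, 5.89 and 5.74 to 6.43, 6.88 and 6.65 with CL097 (0.85 ± 0.12, adjusted p = 0.000364). The groups of Fen1 values were apart in each genotype. Lig1, the ligase that seals the trimmed fragments, was not called, at -0.33 and -0.47 with CpG and 0.40 with CL097.

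**Figure D2:**
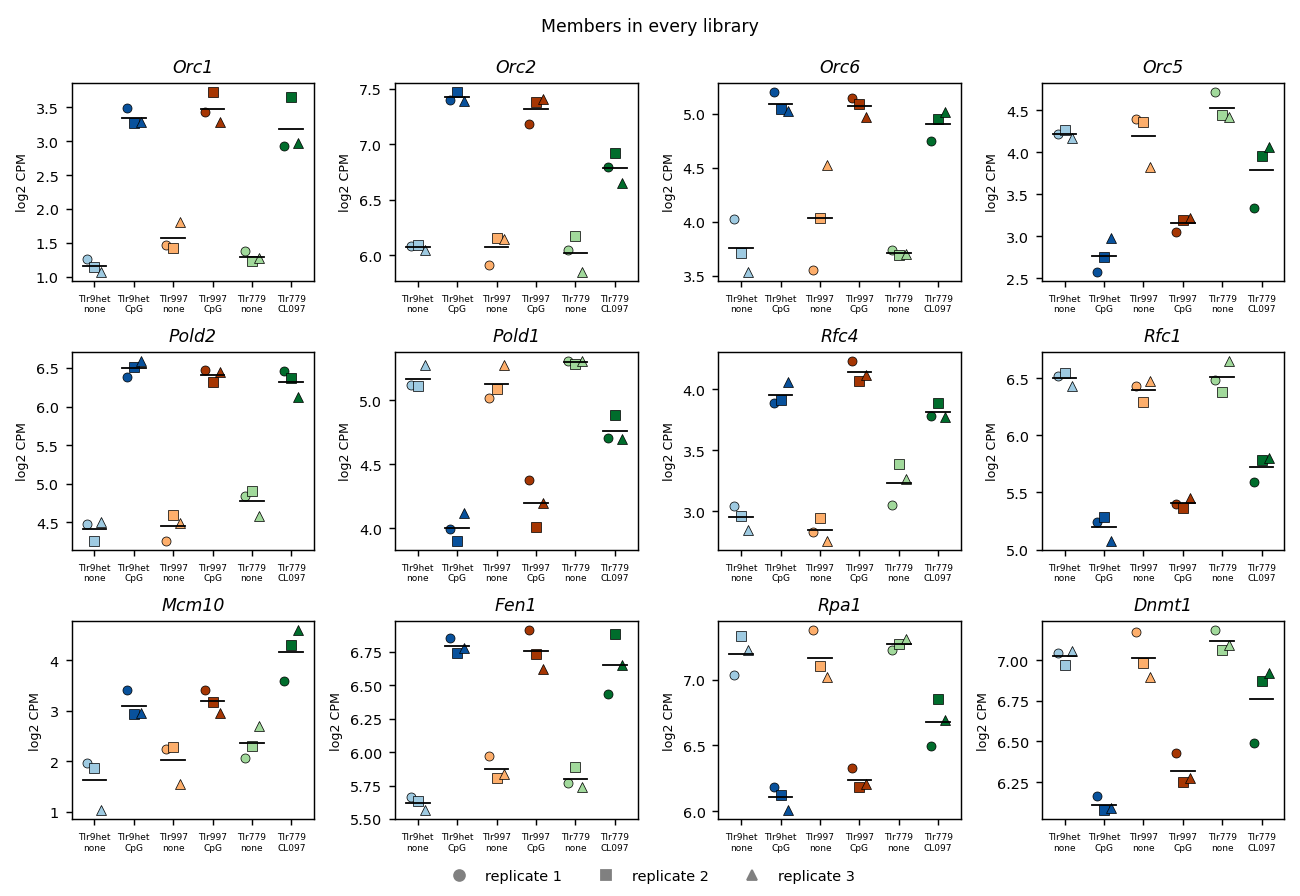
Level in each of the 18 libraries, as log2 CPM (vertical axis), of 12 members in the 6 groups (horizontal axis). Each symbol is 1 library, its shape gives the replicate number and the bar is the mean of 3; within each genotype the stimulated and unstimulated libraries are apart for Orc1, Orc2, Orc6, Orc5, Pold2, Pold1, Rfc4, Rfc1, Mcm10, Fen1, Rpa1 and Dnmt1.

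Of the genes that copy chromatin behind the fork, Dnmt1, the maintenance DNA methyltransferase, fell with CpG. Its Tlr9het libraries read 7.04, 6.97 and 7.06 log2 CPM at rest and 6.16, 6.08 and 6.09 with CpG (-0.92 ± 0.07, adjusted p = 9.42e-08), and in Tlr997 cells the log2 fold change was -0.70 ± 0.07 (adjusted p = 1.63e-06). With CL097 it went from 7.19, 7.07 and 7.09 to 6.49, 6.88 and 6.92, a log2 fold change of -0.35 ± 0.12 (adjusted p = 0.0292) that was under the fold threshold, with groups apart. Uhrf1, which guides Dnmt1 to new DNA, and Chaf1a and Chaf1b, subunits of the chromatin assembly factor, were not called. Under the replicate block Uhrf1 was called in Tlr997 cells (0.56, adjusted p = 5.4e-05) and with CL097 (0.72, adjusted p = 0.0279).

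The cyclin E genes, which drive entry into S phase, went apart from each other with CpG. Ccne2 read 1.98, 1.35 and 0.77 log2 CPM in unstimulated Tlr9het libraries and 3.50, 2.76 and 2.40 with CpG, a log2 fold change of 1.52 ± 0.33 (adjusted p = 0.000912). It rose by 0.78 ± 0.33 (adjusted p = 0.0478) in Tlr997 cells, a call lost without the second or the third unstimulated or the first or the second CpG library of these cells, without the second library of either Tlr9het group, and without the filter (adjusted p = 0.0598 to 0.151). With CL097 it went from 2.15, 2.23 and 1.80 to 2.56, 4.20 and 3.63 (1.41 ± 0.38, adjusted p = 0.0129), a call lost without the filter (adjusted p = 0.11).

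Ccne1 (chromosome 7, 38097984 to 38107490) fell with CpG in Tlr9het cells and rose with CL097. Its Tlr9het libraries read 3.29, 3.06 and 2.82 log2 CPM at rest and 2.88, 1.74 and 1.73 with CpG (-0.94 ± 0.29, adjusted p = 0.0113), and the first CpG library lay within the unstimulated range. The call was lost without the second CpG library (-0.75, adjusted p = 0.055) or the third (-0.75, adjusted p = 0.0547), and without the filter (adjusted p = 0.053). In Tlr997 cells it went from 3.38, 2.99 and 2.87 to 2.70, 2.51 and 2.06, and its value of -0.66 ± 0.29 (adjusted p = 0.0621) became a call under the replicate block (adjusted p = 0.0107). With CL097 it went from 2.94, 2.74 and 2.46 to 3.14, 4.25 and 4.08 (1.11 ± 0.29, adjusted p = 0.0113), a call lost without the filter (adjusted p = 0.0957).

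Among the E2F factors, the activators E2f1 and E2f3 rose and E2f2 was not called. E2f1 rose by 0.80 ± 0.18 (adjusted p = 0.00155) and 0.85 ± 0.18 (adjusted p = 0.001) with CpG and by 0.57 ± 0.18 (adjusted p = 0.0268) with CL097, and the CL097 call was lost without the second or the third CL097 library or the first or the third unstimulated one (adjusted p = 0.0555 to 0.0816), and without the filter (adjusted p = 0.111). E2f3 rose in Tlr9het cells (0.52), a call lost on its fold without the first or the second CpG library or the second or the third unstimulated one (0.47 to 0.49), and with CL097 (0.61) and read 0.29 in Tlr997 cells. The repressor E2f8 was called with CL097, at 1.27 ± 0.48 (adjusted p = 0.0469), from 3.30, 3.39 and 3.58 log2 CPM at rest to 3.40, 5.43 and 5.26, where the first CL097 library overlapped the unstimulated range. That call was lost without the second or the third CL097 library or any unstimulated one (adjusted p = 0.0817 to 0.138) and without the filter (adjusted p = 0.258), and was kept without the first CL097 library (1.92, adjusted p = 7.64e-05). With CpG E2f8 read 0.24 and -0.33 in Tlr9het and Tlr997 cells. E2f7, its partner repressor, was not called, and reached the call with CL097 under the replicate block (0.74, adjusted p = 0.0285).

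Several of these genes moved from library to library with erythroid markers. The spleen of mice also makes red cells, and the antibodies that depleted other cells here were against CD43, CD4, CD8, CD11b, CD11c and Gr-1. The list of erythroid markers held 9 genes, 7 of them found in the files, and its summed level ranged from 338 to 1963 CPM in unstimulated Tlr9het, 605 to 1358 in Tlr9het with CpG, 413 to 3580 in unstimulated Tlr997, 677 to 3387 in Tlr997 with CpG, 1002 to 4277 in unstimulated Tlr779 and 1159 to 4065 in Tlr779 with CL097. Hba-a1 read -5.05 log2 CPM, the most frequent value below -4, in all 18 libraries. An index was taken, after the data had been seen, as the mean log2 CPM of Klf1, Alas2 and Slc4a1, genes of erythroid transcription, heme synthesis and the red cell membrane. It was highest in replicate 1 of all 4 groups of the first arm and in replicate 2 of both Tlr779 groups. It read 4.04, 6.11 and 4.49 in unstimulated and 4.13, 6.99 and 6.21 in CL097-stimulated Tlr779 libraries.

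Ccne2, E2f2, E2f7 and Fen1 were highest in the same library as the index in all 6 groups, and Dbf4, Pcna, Ccne1, E2f8 and Chaf1a in 5. These were 7.55% and, together, 17% of the 53 members, beside 1.14% and 3.38% of the 11673 genes over 0 log2 CPM in at least 3 of the 18 libraries. Of the 22 genes of mitosis and G2/M described last, 22.7% were highest with the index in at least 5 groups, as were 18% of 50 other replication genes. E2f2, for instance, read 5.82, 5.14 and 5.03 log2 CPM in unstimulated Tlr9het and 5.45, 6.98 and 6.59 in CL097-stimulated Tlr779 libraries. With CL097, the second and the third libraries of Cdc6, Cdc45, E2f8, Ccne1, Ccne2 and Uhrf1 were higher than the first, as the index was. This order was not particular to them. Mcm2 to Mcm7, Pcna and Lig1 showed it too. So did Orc5, Rfc1, Rfc2, Rpa1 and Dnmt1, which were lower with CL097 than at rest. Other members, such as Orc4, Pold2 and Rfc3, did not, and the share of all genes with this order was not counted.

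With the index as a covariate, the 17 rises and 9 falls of Tlr9het cells were all kept, and Tlr997 cells had 22 rises and 8 falls, the 27 calls kept and Cdc6, Ccne1 and Uhrf1 added. With CL097, 17 rises and 6 falls were kept, and Gins2, E2f1 and E2f8 were lost. There Cdc6 read 1.66 (adjusted p = 0.018), Ccne1 0.88 (adjusted p = 0.0205), Ccne2 1.05 (adjusted p = 0.0128) and E2f8 0.84 (adjusted p = 0.0748). The index itself was higher with CL097 than at rest in each replicate number, so this fit cannot tell it apart from the effect of CL097. The part of erythroid cells in the CL097 response was not tested.

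**Figure D3:**
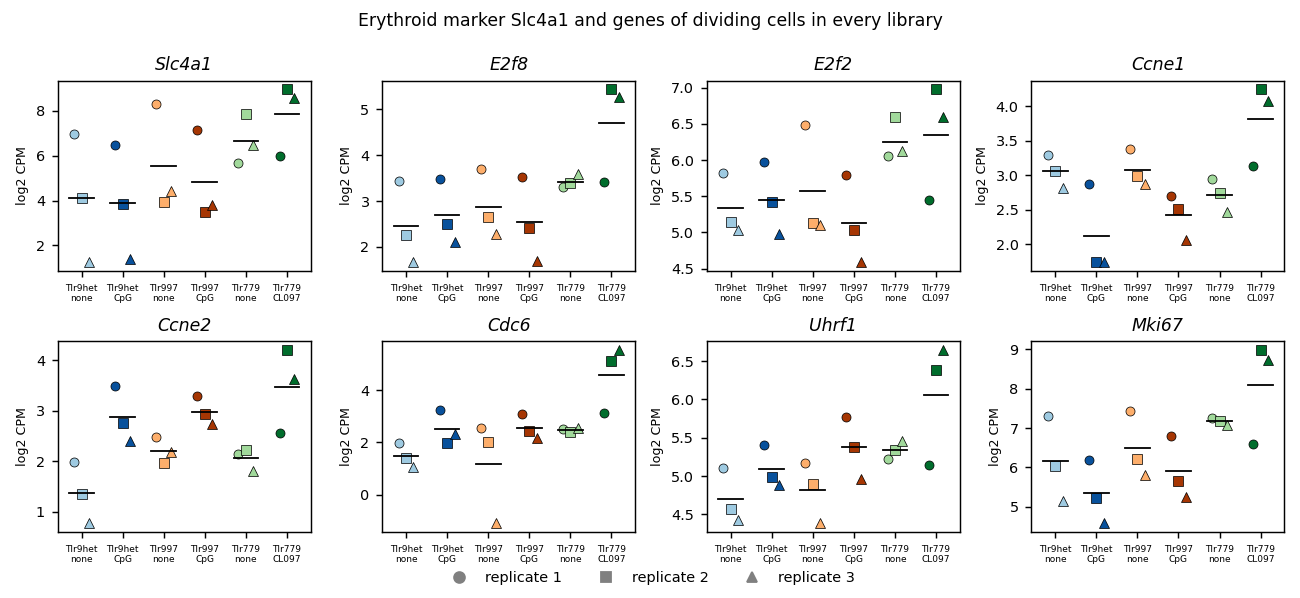
Level in each of the 18 libraries, as log2 CPM (vertical axis), of the erythroid membrane gene Slc4a1, of 6 members and of the proliferation marker Mki67 in the 6 groups (horizontal axis). Each symbol is 1 library, its shape gives the replicate number and the bar is the mean of 3; replicate 1 is high in the first arm for Slc4a1, E2f8, E2f2 and Mki67, and with CL097 replicates 2 and 3 lie above replicate 1 in all 8 plots.

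E2F factors bind short words in promoters, and these were searched as a description of the members. RefSeq (GRCm38.p6) windows from 250 bases before to 50 after the first listed start were at hand for 44 of the 53 members. The words TTTCCCGC, TTTCGCGC, TTTGCCGC and TTTGGCGC, on either strand, were present in 16 of the 44 (36.4%), beside 468 of 16375 genes of the files with a window (2.9%). They were in 2 of the 11 windows of members that rose in all 3 responses (18.2%), in 1 of the 4 of members that fell in all 3, and in 7 of the 16 of members called in none (43.8%). A window counted once however many words it held. Pieces of 30 bases before the start are shown for members that rose and for members called in none, since no member that fell had a word wholly before its start, 5′ to 3′ on the gene's strand with the word in capitals: Orc1 and Rfc3 rose in all 3 responses, Cdc6 with CL097, Mcm5 with CpG, and Mcm6 and Mcm7 in none.
Orc1: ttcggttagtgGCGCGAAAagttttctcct
Rfc3: ccggaagtgacgtcgcacgcTTTCGCGCtc
Cdc6: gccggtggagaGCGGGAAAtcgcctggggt
Mcm5: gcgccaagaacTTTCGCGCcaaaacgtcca
Mcm6: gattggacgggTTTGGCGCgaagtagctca
Mcm7: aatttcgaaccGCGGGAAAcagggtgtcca

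The pieces lie at chr4:108579416-108579445 (plus strand, Orc1), chr5:151651209-151651238 (minus, Rfc3), chr11:98908002-98908031 (plus, Cdc6), chr8:75109345-75109374 (plus, Mcm5), chr1:128359734-128359763 (minus, Mcm6) and chr5:138172030-138172059 (minus, Mcm7). Each word begins upstream of the listed start, 27 bases before it for Orc1, whose first listed start lies inside the gene's full span, and 10 for Rfc3, 138 for Cdc6, 153 for Mcm5, 47 for Mcm6 and 165 for Mcm7. The Mcm5 piece also holds TTTGGCGC on the other strand, beginning 149 bases before the start, which overlaps the capitals and is not itself marked. A match gives letters in a window and does not show that a factor binds there.

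The comparison of Tlr997 with Tlr9het cells asks whether the TIR domain of TLR7 on TLR9 changed these genes. With CpG, 0 of the 53 members were called by limma, beside 2.72% of all genes, and 6 members had an unadjusted p under 0.05, beside 19% of all genes. The estimates ranged from -0.32 to 0.50 with a median of 0.09, beside 0.0005 over all genes, and 44 of 53 were above 0, beside 50.1% of all genes. For 35 of the 53 the 95% interval of the difference lay within 0.5 of 0 on the log2 scale, and for the other 18 it reached beyond, up to -1.50 to 1.62 for Cdc6. A p that misses the threshold does not show that levels were equal.

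The smallest p-values belonged to Rfc3, Orc3 and Rfc1. Rfc3 read 4.50, 4.67 and 4.76 log2 CPM with CpG in Tlr9het cells and 5.12, 5.12 and 5.05 in Tlr997 cells, a difference of 0.45 ± 0.10 (adjusted p = 0.0141) with an interval of 0.25 to 0.66. It thus passed the p and missed the fold threshold, and it was called without the third Tlr9het CpG library (0.51, adjusted p = 0.026). Orc3 read 6.88, 6.95 and 7.07 in Tlr9het and 7.17, 7.15 and 7.32 in Tlr997 cells, a difference of 0.25 ± 0.07 (adjusted p = 0.0444). Rfc1 read 5.24, 5.28 and 5.07 and 5.40, 5.37 and 5.45, a difference of 0.20 ± 0.07 (adjusted p = 0.14). For all 3 genes each Tlr997 library with CpG lay above each Tlr9het library with CpG. That adds no evidence, since the genes were picked by their p. At rest the differences were 0.07, -0.12 and -0.10.

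At rest, 0 of the 53 members were called between genotypes, beside 0.0174% of all genes, and 6 had an unadjusted p under 0.05, beside 10.8%. The estimates ranged from -0.58 to 0.84 with a median of 0.03, which was -0.02 without the first unstimulated Tlr997 library. The smallest p-values were those of Rpa3, Fen1 and Pola2. Rpa3 read 3.84, 3.84 and 3.77 log2 CPM in Tlr9het and 4.38, 4.05 and 4.58 in Tlr997 libraries, a difference of 0.52 ± 0.14 (adjusted p = 0.295). Fen1 differed by 0.25 ± 0.08 (adjusted p = 0.339) and Pola2 by -0.25 ± 0.09 (adjusted p = 0.383), with 5.57, 5.56 and 5.67 in Tlr9het and 5.43, 5.50 and 5.14 in Tlr997 libraries. None of the 3 passed the adjustment. The libraries of the genotypes did not overlap for any of them, which adds no evidence, since they were picked by their p.

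The difference of CpG responses, Tlr997 minus Tlr9het, shares its libraries with the comparisons above. It called 0 of the 53 members, beside 1.54% of all genes, and 6 members had an unadjusted p under 0.05, beside 16%. The estimates ranged from -0.74 to 1.00 with a median of 0.05 (-0.05 without the third unstimulated Tlr997 library), and the intervals reached past 0.5 from 0 for 37 of the 53. The smallest p-values were again those of Orc3, at 0.36 ± 0.09 (adjusted p = 0.0654) with an interval of 0.16 to 0.57, Rfc1, at 0.30 ± 0.10 (adjusted p = 0.165), and Rfc3, at 0.39 ± 0.14 (adjusted p = 0.177). Behind these, Rfc3 had a CpG response of 0.94 in Tlr997 and 0.56 in Tlr9het cells, and Rfc1 one of -0.99 and -1.30. Ccne2 had the lowest estimate, -0.74 ± 0.46, and Gins1, low in the third unstimulated Tlr997 library, the highest, 1.00 ± 0.54.

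**Figure D4:**
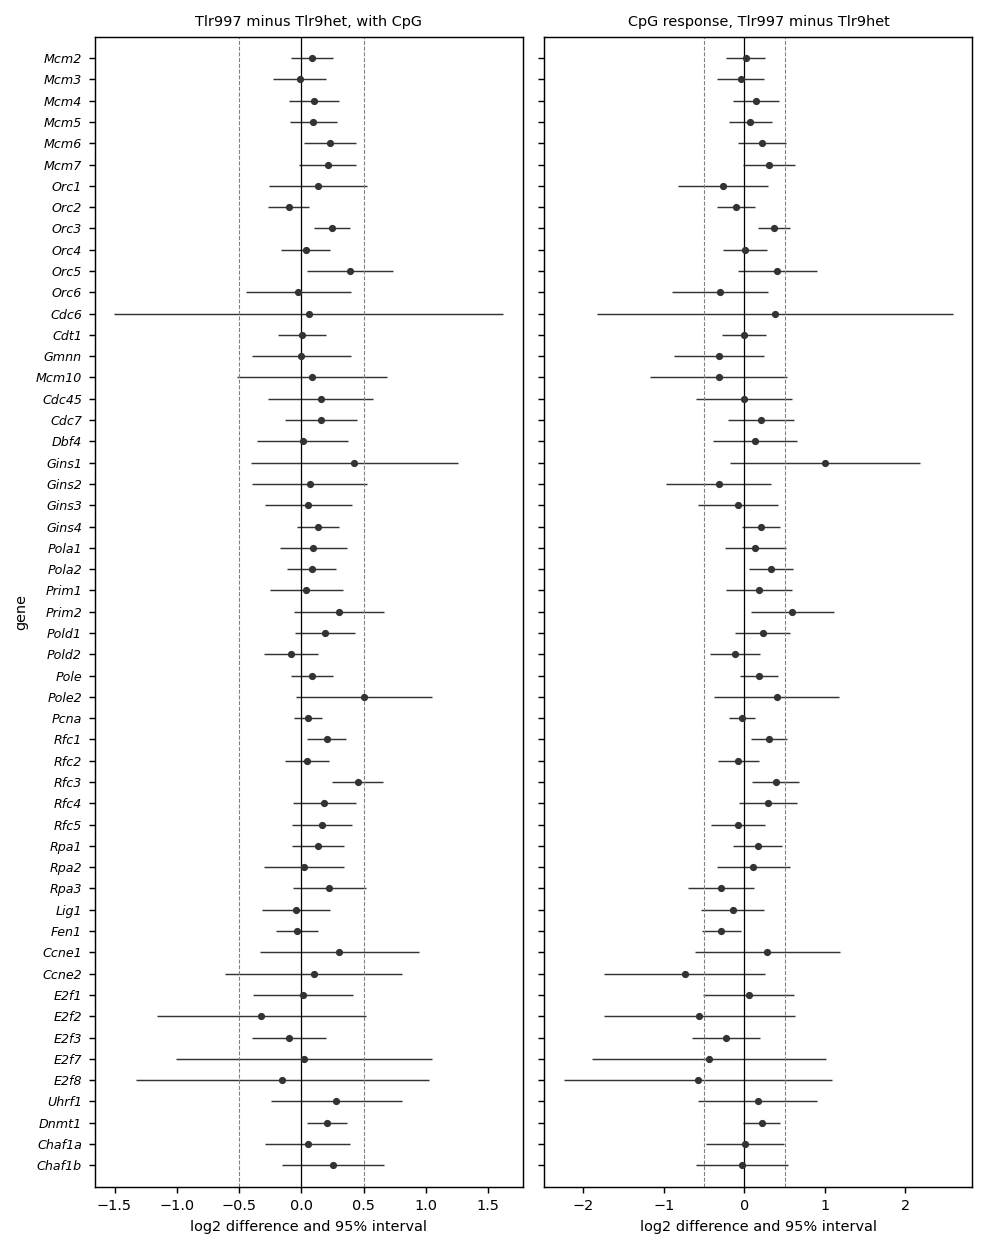
Difference between genotypes in log2 CPM (horizontal axes, points with 95% intervals) for each of the 53 members (vertical axis). The left plot gives Tlr997 minus Tlr9het with CpG, the right plot the CpG response of Tlr997 minus that of Tlr9het; dashed lines mark 0.5 on either side of 0, and 35 of the 53 intervals in the left plot lie between them against 16 in the right.

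A second list of 50 genes that act beside the members gave 20 rises and 12 falls with CpG in Tlr9het cells. It gave 19 and 9 in Tlr997 cells and 20 and 7 with CL097, and its medians were 0.18, 0.22 and 0.31. Of all genes, 57.8%, 55.6% and 46.3% were called in these responses. Cdkn1b and Rbl2, inhibitors of S phase entry, were among the largest falls, but not every gene of the list moved toward such entry. Cdkn1b, the inhibitor p27 of cyclin E kinase, read 7.37, 7.28 and 7.36 log2 CPM in unstimulated Tlr9het libraries and 4.76, 4.70 and 4.50 with CpG (-2.68 ± 0.07, adjusted p = 3.88e-12), with log2 fold changes of -2.52 in Tlr997 and -1.69 in Tlr779 cells. Rbl2, the retinoblastoma relative p130 that represses E2F targets in resting cells, fell with log2 fold changes of -2.42 ± 0.09 (adjusted p = 5.51e-11), -2.37 ± 0.09 (adjusted p = 9.08e-11) and -1.81 ± 0.11 (adjusted p = 7.64e-06), and Rb1 with -1.57, -1.29 and -1.05. Tfdp1, a partner of the E2F factors, rose by 1.57, 1.57 and 1.39, and Cdc25a, the phosphatase that activates cyclin E kinase, by 1.83, 1.36 and 1.91. Tfdp2, the other such partner on the list, fell with CpG in Tlr9het cells (-2.20 ± 0.65, adjusted p = 0.00824), as did Rbl1 (-1.69 ± 0.10, adjusted p = 3.46e-09). Both were also called lower with CpG in Tlr997 cells, and neither was called with CL097. There the mean of Tfdp2 went from 6.23 to 5.12 log2 CPM and that of Rbl1 from 6.08 to 6.25. Fbxw7, whose product targets cyclin E for breakdown, rose with CpG in Tlr9het cells (0.91 ± 0.08, adjusted p = 2.34e-07). Cdk2, the kinase of cyclin E, fell in the same response (-0.63 ± 0.07, adjusted p = 3.03e-06).

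Genes of nucleotide supply also split. Tyms, which makes thymidylate, read 2.11, 1.98 and 1.76 log2 CPM at rest and 4.76, 4.72 and 4.55 with CpG in Tlr9het cells (2.73 ± 0.23, adjusted p = 1.42e-07), and rose by 2.81 and 2.57 in Tlr997 and Tlr779 cells. Samhd1, which breaks down deoxynucleotides, read 9.13, 9.12 and 9.03 at rest and 5.94, 6.14 and 5.86 with CpG (-3.12 ± 0.11, adjusted p = 2.21e-11), with log2 fold changes of -2.48 and -1.37 in Tlr997 and Tlr779 cells. Rrm2, a subunit of ribonucleotide reductase, was called with CL097 alone (1.44 ± 0.55, adjusted p = 0.0486), a call kept without the first CL097 library (2.19, adjusted p = 4.22e-05) and lost without any 1 of the other 5 libraries (adjusted p = 0.09 to 0.139), without the filter (adjusted p = 0.27) and with the erythroid index as a covariate (0.92, adjusted p = 0.0649). Chek1, the checkpoint kinase, rose in Tlr997 cells by 4.34 ± 1.24 (adjusted p = 0.00657), where the third unstimulated library read -4.66 beside 1.64 and 1.86, and by 2.20 without that library (adjusted p = 7.12e-05). In Tlr9het cells Chek1 read 2.35 ± 1.24 (adjusted p = 0.104), which was not called although the groups were apart, and it rose with CL097 by 1.70 ± 0.27 (adjusted p = 0.000814).

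In the comparison of genotypes with CpG, 4 of the 50 genes of this second list were called, beside 2.72% of all genes. Samhd1 (0.55 ± 0.11) and Rbl1 (0.54 ± 0.10), a further retinoblastoma relative, were higher in Tlr997 cells, and Fbxw7 (-0.78 ± 0.08), which targets cyclin E for breakdown, and Wdhd1 (-0.52 ± 0.09), a fork protein, were lower. Samhd1, Rbl1 and Fbxw7 were also called in the difference of responses (0.63, 0.66 and -0.60), where 1.54% of all genes were called. With CpG, Rbl1 read 4.44, 4.34 and 4.24 log2 CPM in Tlr9het and 4.87, 4.98 and 4.79 in Tlr997 libraries, and Fbxw7 6.82, 6.76 and 6.88 and 5.86, 6.21 and 6.05. The genotypes did not overlap for either gene, which adds no evidence, since both were picked from the called genes. These 4 genes were named after their values had been seen.

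Of 22 genes of mitosis and G2/M, 2 rose and 3 fell with CpG in Tlr9het cells, and 2 rose and 3 fell in Tlr997 cells. With CL097 1 rose and 1 fell, and between genotypes 0 were called. The calls among all genes were 57.8%, 55.6% and 46.3% in the 3 responses and 2.72% between genotypes with CpG. The median log2 fold changes of the 22 genes were 0.28, 0.10 and 0.46. Mki67, a marker of dividing cells, read 7.302, 6.05 and 5.14 log2 CPM in unstimulated and 6.20, 5.24 and 4.58 in CpG-stimulated Tlr9het libraries and was not called (-0.82 ± 0.58, adjusted p = 0.217). In Tlr997 cells it read 7.42, 6.22 and 5.81 at rest and 6.79, 5.66 and 5.26 with CpG. In Tlr779 cells it read 7.26, 7.18 and 7.08 at rest and 6.60, 8.98 and 8.72 with CL097, where 2 of the 3 libraries were higher. Mki67 was named after its values had been seen.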

How the data were processed

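RNA was taken from bead-purified splenic B cells of 3 mice per genotype, as the protocol describes. Per the submitters' processing notes and the methods, the authors trimmed reads (Trim Galore 0.6.5, FastQC 0.11.7), aligned them to mm10 (STAR 2.6.1a), counted genes (featureCounts, Subread 2.0.1) and applied quantile normalization and voom. The deposited values were log2 CPM, 1 file per library, with no counts. They were tested as deposited with limma 3.58.1 (R 4.3.3) and a variance trend, since count tests need counts. Fold changes hold voom's offset of 0.5 counts, which understates changes of low genes.

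Genes over 0 log2 CPM in at least 3 fitted libraries were tested, with 1 mean per group over the 12 libraries of the Tlr7-/- arm or the 6 Tlr779 libraries. Adjusted p-values (Benjamini-Hochberg) covered all tested genes. The code was tested on simulated data. The 53 members and all lists were chosen with earlier results of these data known. One marker gene is not reported here. Values in every library are given for the 8 largest rises and 6 largest falls in the CpG response of Tlr9het cells and the CL097 response, the largest change of each role, and the 3 smallest p-values between genotypes where none was called. Other replication genes were named where called with an absolute log2 fold change over 1, at most 8 per comparison, and a few more after their values were seen.

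Replicate numbers looked like pairs for Tlr9het (same-number deviations correlated at r = 0.513, 0.287 and 0.509) and Tlr779 (0.205, 0.421 and 0.285). They did not for Tlr997 (0.373, 0.083 and 0.025) or between genotypes. The main tests fitted no pairs in any genotype. The replicate block, an alternative, fitted the number within each genotype of a response, Tlr997 included. The calls it added in Tlr997 cells (Cdc6, Ccne1 and Uhrf1) thus rest on pairs that these correlations did not show. In the first arm, 6306 of 6614 genes below -4 log2 CPM had 1 value per replicate number, and for 822 it differed between numbers, as an offset per number removed upstream would leave. No source used here states such a step, and tests without a block would not count it.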

Additional observations from a re-analysis of the deposited data

How the results depend on the processing

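No called change of a gene carried through the alternatives reversed its direction. The median of the members changed sign between alternatives in the difference of responses (-0.05 to 0.15) and at rest (-0.02 to 0.125). At a fold threshold of 1, CpG called 4057 genes in Tlr9het cells with 9 members higher and 5 lower, and 3766 genes in Tlr997 cells with 7 higher and 2 lower. CL097 called 2580 genes with 9 members higher and 0 lower, and 74 genes were called between genotypes with CpG and 46 in the difference of responses. Without the filter on low values, 187 genes were called between genotypes with CpG, 0 at rest and 78 in the difference of responses, and CL097 called 12 members higher, against 20. Array quality weights gave 485 genes between genotypes with CpG and 377 in the difference of responses, no variance trend gave 98 in the latter, and a fit of only the 6 libraries compared gave 0 at rest. With the replicate block, the pairing raised the difference of responses from 177 to 328 genes, or to 215 where the genotypes shared the numbers, with 0 members called in both, and the members higher and lower were 18 and 9 for CpG in Tlr9het, 22 and 8 in Tlr997 and 23 and 6 for CL097. It changed no call of a member other than those of Gins1, Cdc6, Ccne1, Uhrf1 and E2f7. When 1 library was left out, genes called ranged from 187 to 410 between genotypes with CpG, 2 to 4 at rest and 87 to 295 in the difference of responses, members called higher between genotypes with CpG from 0 to 1, and members called with CL097 from 16 to 28 higher and from 3 to 6 lower. In the same runs CpG called 15 to 19 members higher and 8 to 9 lower in Tlr9het cells, and 18 to 24 higher and 7 to 9 lower in Tlr997 cells. The cause of these shifts was not tested, and the unknown depth limits what low genes such as Cdc6, Gins1 and Orc1 can show.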

Other observations

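Beside the members, the other E2F genes on the list of partners rose together. They were chosen for description after their values had been seen. E2f4, the factor that works with p130 in resting cells, rose by 0.82 ± 0.08 (adjusted p = 1.02e-06) and 0.86 ± 0.08 (adjusted p = 7.53e-07) with CpG in Tlr9het and Tlr997 cells and by 0.78 ± 0.08 (adjusted p = 6.56e-05) with CL097. E2f5, its close relative, rose by 1.47 ± 0.12 (adjusted p = 7.87e-08), 1.67 ± 0.12 (adjusted p = 2.59e-08) and 1.08 ± 0.14 (adjusted p = 0.000317), and E2f6, a repressor without a retinoblastoma binding domain, by 1.21 ± 0.11 (adjusted p = 2.96e-07), 1.03 ± 0.11 (adjusted p = 1.76e-06) and 0.88 ± 0.11 (adjusted p = 0.000281). The 8 genes of this group of retinoblastoma relatives and E2F partners split into 4 rises and 4 falls with CpG in each genotype.

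Subunits of polymerase epsilon outside the 53 genes also rose. Pole3, a histone-fold subunit, rose by 1.37 ± 0.07 (adjusted p = 1.45e-09), 1.28 ± 0.07 (adjusted p = 3.63e-09) and 0.74 ± 0.11 (adjusted p = 0.000653), and its partner Pole4 by 1.22 ± 0.06 (adjusted p = 3.17e-10) and 0.82 ± 0.06 (adjusted p = 1.96e-08) with CpG, while it read 0.11 ± 0.11 (adjusted p = 0.408) with CL097. Donson, which helps to assemble the helicase, fell in all 3 responses, with log2 fold changes between -1.09 and -0.61. The checkpoint kinase Atr rose by 1.00 ± 0.08 (adjusted p = 1.03e-07), 1.13 ± 0.08 (adjusted p = 3.27e-08) and 1.15 ± 0.10 (adjusted p = 3.43e-05).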
